A study of Homo sapiens with 30 samples.

Results

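The genes followed here were 8 genes of epithelial sodium transport and of the kinase that controls it: SGK1, SGK3, SCNN1A, SCNN1B, SCNN1G, NEDD4L, ATP1B1 and CFTR. They were taken by gene name from a count table of 58780 genes, in which all 8 had a row. The filter on low counts left 22919 genes for testing, 7 of these 8 among them, and CFTR did not pass it.

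The libraries were PRO-seq (precision run-on sequencing) of A549, a cell line derived from a human lung adenocarcinoma. PRO-seq lets engaged RNA polymerases extend their transcripts in permeabilised cells and sequences those nascent RNAs, so the counts follow transcription and not stored mRNA. The series compared inhibitors of protein arginine methyltransferases (PRMTs) and the synthetic glucocorticoid dexamethasone (Dex), alone and in combination, in 15 groups of 2 libraries. GSK591 inhibits PRMT5, a type II enzyme, and MS023 inhibits type I PRMTs.

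Dex was used at 100 nM, GSK591 at 1 µM and MS023 at 1 µM, and every group, the untreated cells included, was kept in 0.01% DMSO. Dex alone was given for 15 min or 3 h, and Dex was also given for 3 h together with GSK591 or together with MS023. Each inhibitor was given alone for 2, 4 or 7 days, and after 7 days of either inhibitor Dex was added for 15 min or 3 h. The untreated libraries carry a label of 15 min, so their labelled time matches only the short Dex treatment. All groups come from 1 cell line, and nothing in the labels says whether the 2 libraries of a group came from separate cultures, so the p-values measure the spread between libraries, which may be technical.

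As background, sodium enters absorptive epithelial cells through the epithelial sodium channel ENaC, whose alpha, beta and gamma subunits are encoded by SCNN1A, SCNN1B and SCNN1G, and leaves through the Na,K-ATPase, whose beta 1 subunit is encoded by ATP1B1. The ubiquitin ligase NEDD4L tags ENaC for removal from the membrane, and SGK1, a serum and glucocorticoid induced kinase, phosphorylates NEDD4L and so keeps ENaC at the surface. SGK3 is a related kinase found on endosomes, and CFTR is the apical chloride channel that is mutated in cystic fibrosis.

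Total counts ran from 8441211 to 13069598 per library (median 10141639.5), of which mitochondrially encoded genes took 58.7% to 78.7%. Values are given as CPM, read counts relative to library size, scaled by edgeR's TMM factors. The 2 libraries of each group correlated at 0.959 to 0.983 over 11117 genes (Pearson r, log2 CPM), except for Dex with MS023 at 3 h, where r was 0.923. Of the epithelial markers, KRT7, KRT8 and KRT18 had means of 286, 199 and 84.3 CPM in untreated cells, while EPCAM and CDH1 had 2.04 and 1.94 CPM. Of the alveolar type II markers SFTPB and ABCA3 were highest there at 6.62 and 8.38 CPM. SFTPD and SFTPC had 1.61 and 0.631 CPM, and SFTPA2 had 0 counts. SLC34A2, LAMP3, SFTPA1 and NKX2-1 had 0.167, 0.111, 0.0556 and 0.0504 CPM in untreated cells. Of the alveolar type I markers CAV1 and AGER had 28.8 and 7.29 CPM there, PDPN 0.0556 CPM and HOPX 0 CPM. Of 5 immune markers CD3E was at 0 counts in 21 libraries and PTPRC in 13, while CD14 and ITGAM had 2.23 and 2.83 CPM in untreated cells. Scaling by total counts in place of TMM moved the median log2 fold change of all genes by up to 1.02, reached after 7 days of MS023. With that scaling 16120 of 16196 genes called after 7 days of MS023 were higher, against 1634 of 3127 with TMM, and at 3 h of Dex 1031 of 1259, against 1400 of 2410. The changes below are therefore relative to the bulk of genes.

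A gene is described as risen or fallen where edgeR's quasi-likelihood test gave a Benjamini-Hochberg adjusted p below 0.05 over all genes tested. With 2 libraries a group, a permutation test of a single gene could not go below p = 0.333 (two-sided), so the test rests on a spread shared across genes and groups. After 15 min of Dex, 1 of the 7 tested genes was called, beside 1.26% of all genes. At 3 h of Dex 4 of 7 were called, beside 10.5% of all genes, and between 15 min and 3 h of Dex 4 of 7, beside 10.8%. Against untreated cells, Dex with GSK591 called 4 of 7 (11.9% of all genes) and Dex with MS023 called 5 of 7 (12% of all genes). All calls in these 5 comparisons were higher with Dex or at the later time. SCNN1G passed the filter on low counts through 4 libraries, all of them given Dex for 3 h, so it had to differ from groups without Dex, and it is 1 of the calls in each of the last 4 comparisons. Of the other 6 genes 3 were called at 3 h of Dex, 3 between 15 min and 3 h, 3 with Dex and GSK591 and 4 with Dex and MS023. SCNN1B reached the minimum count in 16 libraries, among them all 10 given Dex for 3 h and no untreated one. The counts are given as a description.

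The inhibitors without Dex called fewer of the 7. GSK591 called 0 at 2 days, 1 at 4 days and 1 at 7 days, beside 5.64%, 17.2% and 13.2% of all genes. MS023 called 2 at 2 days, 2 at 4 days and 0 at 7 days, beside 10.4%, 14.2% and 13.6%. All of these calls were higher than untreated, and counts of 0 to 2 of 7 are near the background shares. In the comparisons with a count of 0, edgeR gave an unadjusted p below 0.05 for 2 genes with GSK591 at 2 days and for 3 with MS023 at 7 days, and DESeq2 called 0 in each. DESeq2 gave no adjusted p for SCNN1G in either, nor for SCNN1B with GSK591 at 2 days.

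**Figure D1:**
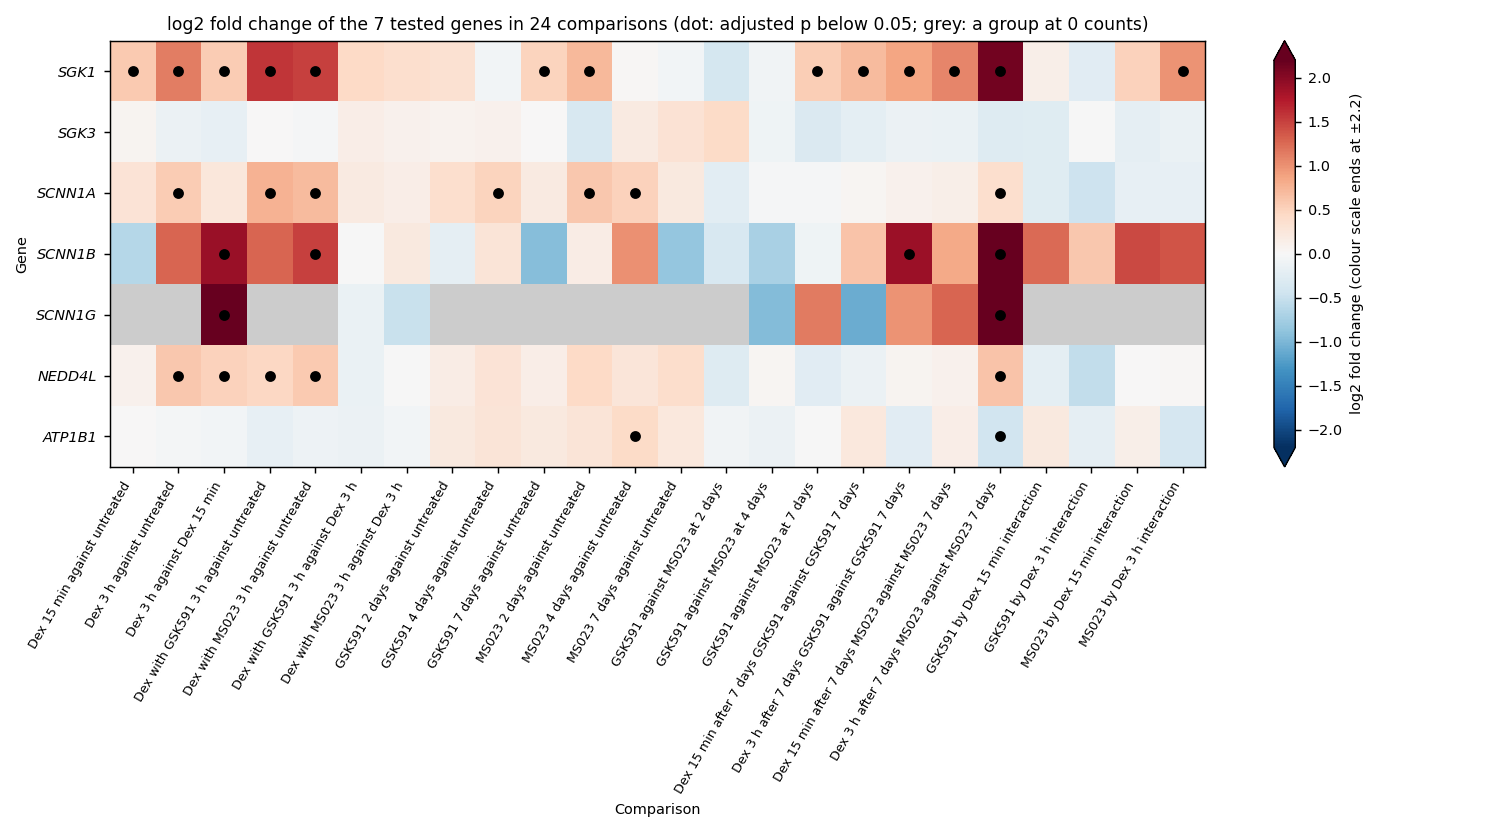
log2 fold changes (colour, red higher in the first-named group, blue lower) of the 7 tested genes (rows) in the 24 comparisons (columns), with a dot where the edgeR adjusted p was below 0.05 and grey where SCNN1G was at 0 counts in a group compared. SGK1 carries 13 dots and SGK3 none, and the column of Dex 3 h after 7 days of MS023 carries 6.

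Levels of different genes were compared per kilobase of annotated exon. In untreated cells ATP1B1 was highest at 21.2 CPM per kb, followed by SCNN1A at 6.05, SGK1 at 2.62 and SGK3 at 2.18 CPM per kb. NEDD4L stood at 0.762, SCNN1B at 0.218 and CFTR at 0.0281 CPM per kb, and SCNN1G had no count. The alpha subunit of ENaC was thus far above the beta subunit, and the gamma subunit was below detection. The feature type that was counted is not given in the sources used here, so a level per kb of exon is a description of these counts.

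SGK1 (ENSG00000118515.11) lies on chromosome 6 from 134169246 to 134318112 on the minus strand (hg38, GENCODE 29), with 28 annotated transcript starts, and no other gene's exons overlap its own. Its highest group mean was 4.35 times its lowest, the widest range among the 5 members that reached the minimum count in all 30 libraries. SCNN1B, with few counts, had a wider one (6.81 times), and SCNN1G and CFTR were near or at 0 in some groups. RefSeq windows of the 250 bases before 3 SGK1 starts (GRCh38.p14) show how unlike its annotated promoters are, and counts summed over the gene do not say which of them is in use. Those of their bases outside annotated exons are printed, 5′ to 3′ on the minus strand, with capitals for matches to TATAAA or GGGCGG on either strand.
SGK1 far upstream start, chr6:134318113-134318362: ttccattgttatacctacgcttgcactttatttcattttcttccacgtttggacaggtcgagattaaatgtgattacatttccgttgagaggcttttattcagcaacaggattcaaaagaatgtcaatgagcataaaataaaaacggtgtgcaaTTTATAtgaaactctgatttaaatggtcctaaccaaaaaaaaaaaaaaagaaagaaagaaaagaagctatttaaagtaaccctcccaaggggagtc
SGK1 middle start, chr6:134177906-134178111: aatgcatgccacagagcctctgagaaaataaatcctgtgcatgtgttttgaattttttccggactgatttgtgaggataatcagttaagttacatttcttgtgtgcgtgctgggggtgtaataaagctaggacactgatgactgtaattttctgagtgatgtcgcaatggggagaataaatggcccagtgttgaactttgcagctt
SGK1 near start, chr6:134174897-134175116: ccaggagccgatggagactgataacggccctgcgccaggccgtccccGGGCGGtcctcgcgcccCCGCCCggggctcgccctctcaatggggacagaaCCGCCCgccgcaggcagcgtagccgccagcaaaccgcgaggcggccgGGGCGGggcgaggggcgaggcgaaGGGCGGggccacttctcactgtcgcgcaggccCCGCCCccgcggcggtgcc

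The full window of the near start was 76.0% G and C and held 6 matches to GGGCGG, while that of the far upstream start was 33.6% G and C and held none. GGGCGG on either strand occurred in 42.6% of the 35116 RefSeq windows and TATAAA in 10.7%, and each of the 3 SGK1 windows held 1 TATAAA, which in the middle and near windows lies in bases that overlap an annotated exon and are not printed. The full glucocorticoid receptor palindrome, an inverted pair of TGTTCT half-sites spaced by 3 free bases, was in none of the 3, and in 1 of the 35116 windows. The half-site alone, found in 12.4% of windows, was in none of the 3 either, which says only that these letters are not in these 250 bases.

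SGK1 rose within 15 min of Dex and rose further by 3 h. The untreated libraries held 24.1 and 28.2 CPM, those at 15 min of Dex 40.3 and 37.5 CPM, and those at 3 h 56.4 and 58.0 CPM. The 3 groups did not overlap, and each later one lay above the earlier one. The log2 fold change over untreated was 0.57 ± 0.12 (SE) at 15 min (edgeR adjusted p = 0.00484) and 1.13 ± 0.12 at 3 h (edgeR adjusted p = 7.58e-10), and from 15 min to 3 h it was 0.56 (edgeR adjusted p = 0.00079). The call at 15 min was lost without the first untreated library (edgeR adjusted p = 0.334) and without the first Dex 15 min library (0.159), and the step from 15 min to 3 h was lost with total counts as scaling (0.322).

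Given for the same 3 h, Dex with GSK591 gave 71.4 and 84.3 CPM of SGK1 and Dex with MS023 gave 80.6 and 67.6 CPM. All 4 of these libraries lay above both libraries of Dex alone. Over untreated cells the log2 fold changes were 1.57 (edgeR adjusted p = 1.61e-14) and 1.5 (edgeR adjusted p = 8.19e-14). The step above Dex alone was not called: it was 0.44 with GSK591 (95% interval 0.21 to 0.67, edgeR adjusted p = 0.764) and 0.37 with MS023 (0.14 to 0.60, edgeR adjusted p = 0.128). In these comparisons 0 of 7 genes were called by edgeR and 0 by DESeq2, beside 0% and 0.196% of all genes, and SGK1 was in both the 1 gene of the 7 with an unadjusted p below 0.05. With MS023, DESeq2 gave no adjusted p for SCNN1B and SCNN1G.

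The inhibitors alone moved SGK1 at different times. With GSK591 the libraries held 30.1 and 35.6 CPM at 2 days, 23.5 and 27.0 CPM at 4 days, and 36.6 and 37.0 CPM at 7 days. With MS023 they held 44.1 and 42.2 CPM at 2 days, 27.9 and 25.3 CPM at 4 days, and 24.6 and 25.6 CPM at 7 days. GSK591 libraries lay above untreated at 2 and 7 days and MS023 libraries at 2 days, while both inhibitors overlapped untreated at 4 days and MS023 did so at 7 days. SGK1 rose after 7 days of GSK591 (log2 fold change 0.49, edgeR adjusted p = 0.00545) and after 2 days of MS023 (0.72, edgeR adjusted p = 4.49e-05). The rise with GSK591 was lost without the first untreated library (edgeR adjusted p = 0.142) and with total counts as scaling (0.257). At 7 days of MS023 the log2 fold change was -0.06 (95% interval -0.31 to 0.19), and with total counts it was 0.95 (edgeR adjusted p = 0.000177) where the median of all genes was 1.02.

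GSK591 and MS023 were also compared with each other at matched days, in 3 comparisons. At 7 days SGK1 was higher with GSK591 by 0.55 on the log2 scale (edgeR adjusted p = 0.00173), the 1 call among the 7 genes beside 9.38% of all genes. With total counts as scaling this difference turned to -0.49 (edgeR adjusted p = 0.0383), where the median of all genes stood at -1.07. At 2 days and 4 days edgeR and DESeq2 called 0 of the 7, beside 2.69% and 6.03% of all genes, with 2 and 0 genes at an unadjusted p below 0.05. DESeq2 gave no adjusted p for SCNN1G on either day. The SGK1 difference, GSK591 over MS023, was -0.39 at 2 days (95% interval -0.63 to -0.14) and -0.08 at 4 days (-0.33 to 0.17).

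After 7 days of an inhibitor, Dex raised SGK1 from each starting level. With GSK591 the libraries at 15 min of Dex held 62.3 and 57.3 CPM and those at 3 h 66.2 and 68.4 CPM. With MS023 they held 55.6 and 50.8 CPM at 15 min and 98.1 and 120.6 CPM at 3 h. The last were the highest SGK1 values of the 30 libraries and did not overlap any other group.

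Dex after GSK591 raised SGK1 by 0.70 ± 0.12 (SE) on the log2 scale at 15 min (edgeR adjusted p = 0.000185) and by 0.87 ± 0.12 at 3 h (edgeR adjusted p = 2.70e-07). The first of these was lost with total counts as scaling (edgeR adjusted p = 0.165). At 15 min SGK1 was the 1 call of 7 beside 2.09% of all genes, and at 3 h 2 of 7 were called beside 9.85%. Dex after MS023 raised SGK1 by 1.08 ± 0.12 at 15 min (edgeR adjusted p = 3.31e-09) and by 2.12 ± 0.12 at 3 h (edgeR adjusted p = 8.78e-20). At 15 min it was again the 1 call of 7, beside 2.07% of all genes, and at 3 h 6 of 7 were called, 5 higher and 1 lower, beside 11.1%, or 5 of 6 without SCNN1G.

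The response of SGK1 to 3 h of Dex was larger after MS023 than without inhibitor. The difference of the 2 log2 fold changes was 0.99 ± 0.17 (SE, 95% interval 0.66 to 1.33, edgeR adjusted p = 0.0022), the third lowest p of all genes and 1 call of the 7 beside 0.223% of all genes. It was called in 14 of 15 refits under other settings or without 1 library, and was lost with total counts as scaling (0.82, edgeR adjusted p = 0.711). At 15 min the difference was 0.51 (95% interval 0.17 to 0.86, edgeR adjusted p = 1.00) and was not called. For GSK591 the differences were 0.13 at 15 min (-0.22 to 0.48) and -0.26 at 3 h (-0.60 to 0.09).

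Those other 3 tests of a changed response to Dex called 0 of the 7 genes with edgeR and 0 with DESeq2. For GSK591 at 3 h DESeq2 gave no adjusted p for SCNN1B, SCNN1G and SGK3, so it could not call them there. The share of all genes called was 0.00436% for GSK591 at 15 min, 0.223% for GSK591 at 3 h and 0.00436% for MS023 at 15 min. An unadjusted p below 0.05 was reached by 0, 3 and 1 of the 7. The 3 with GSK591 at 3 h were SCNN1A, SCNN1G and NEDD4L, named after their values were seen.

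**Figure D2:**
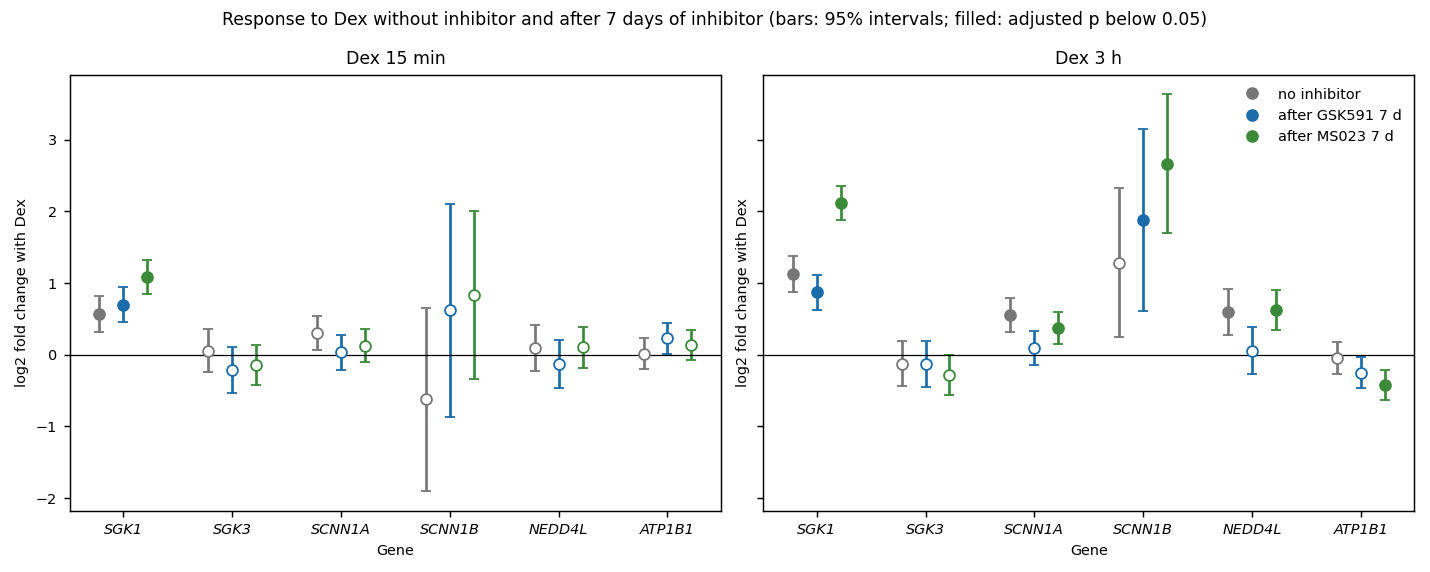
log2 fold change with Dex (vertical axis, bars 95% intervals, filled points adjusted p below 0.05) of 6 genes, at 15 min (left) and 3 h (right), without inhibitor (grey), after GSK591 (blue) and after MS023 (green); SCNN1G is left out because untreated cells had 0 counts. SGK1 at 3 h stands at 1.13 without inhibitor, 0.87 after GSK591 and 2.12 after MS023.

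Ranked by group mean, SGK1 was highest with 3 h of Dex after MS023 (109.3 CPM), then with Dex and GSK591 (77.8), Dex and MS023 (74.1), and 3 h and 15 min of Dex after GSK591 (67.3 and 59.8). Next came 3 h of Dex alone (57.2), 15 min of Dex after MS023 (53.2), MS023 for 2 days (43.1) and 15 min of Dex alone (38.9). The lowest were GSK591 for 7 days (36.8) and 2 days (32.9), MS023 for 4 days (26.6), untreated (26.2), GSK591 for 4 days (25.3) and MS023 for 7 days (25.1). Of the 14 neighbouring pairs in this order, 8 did not overlap and 6 did, and all groups given Dex lay above untreated.

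SGK3 (ENSG00000104205.13) lies on chromosome 8 from 66667596 to 66862022 on the plus strand, and 391 bases of its exons are shared with C8orf44 on the same strand, so reads there cannot be assigned to 1 of them. It was called in none of the comparisons in which SGK1 rose. Untreated libraries held 12.5 and 15.7 CPM, those at 3 h of Dex 12.2 and 13.7 CPM, and those at 3 h of Dex after MS023 13.2 and 16.0 CPM, which overlap. MS023 for 7 days alone held 16.7 and 18.7 CPM, so both Dex libraries after MS023 lay below it, a difference that was not called. With edgeR SGK3 passed the test in 0 of 24 comparisons (lowest edgeR adjusted p = 0.134), with an unadjusted p below 0.05 in 4, and DESeq2 called it in 0. In the tests of a changed 3 h response by GSK591 and by MS023, DESeq2 gave SGK3 no adjusted p. The SGK3 log2 fold change with 3 h of Dex was -0.13, with a 95% interval of -0.44 to 0.19.

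The range of SGK3 over groups was narrow, the highest mean being 1.59 times the lowest. Its highest values were 16.7 and 18.7 CPM after 7 days of MS023 and its lowest 10.6 and 11.6 CPM after 2 days of MS023. The first pair lay above untreated (log2 fold change 0.32, 95% interval 0.03 to 0.62, edgeR adjusted p = 0.134) and the second below it (-0.35, -0.66 to -0.03, edgeR adjusted p = 0.155). Of the 14 neighbouring pairs in its order of group means, 11 overlapped.

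SCNN1A (ENSG00000111319.12), the pore-forming alpha subunit of ENaC, lies on chromosome 12 from 6346843 to 6377730 on the minus strand, with 422 exonic bases shared with LTBR on the opposite strand. Untreated cells had its lowest group mean. They held 31.8 and 39.3 CPM, those at 15 min of Dex 45.2 and 42.5 CPM, and those at 3 h of Dex 51.3 and 53.2 CPM. Both Dex groups lay above untreated. The rise was called at 3 h (log2 fold change 0.55 ± 0.12 SE, edgeR adjusted p = 0.000722) and not at 15 min (0.30, 95% interval 0.06 to 0.54, edgeR adjusted p = 0.382).

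With the inhibitors present during 3 h of Dex, SCNN1A reached its highest group means, from 58.0 and 62.6 CPM with GSK591 and 62.4 and 53.1 CPM with MS023. Over untreated these were log2 fold changes of 0.76 (edgeR adjusted p = 2.88e-06) and 0.70 (edgeR adjusted p = 1.65e-05). Against Dex alone the differences were 0.21 (95% interval -0.02 to 0.44) and 0.14 (-0.09 to 0.37) and were not called.

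The inhibitors without Dex also raised SCNN1A at the earlier days. GSK591 gave 44.5 and 47.1 CPM at 2 days, 48.4 and 51.6 CPM at 4 days, and 40.0 and 41.3 CPM at 7 days. MS023 gave 54.8 and 52.4 CPM at 2 days, 49.7 and 52.1 CPM at 4 days, and 41.8 and 40.5 CPM at 7 days. All 6 groups lay above both untreated libraries, and both 7 day groups lay below the 2 day and 4 day groups of the same inhibitor. The rise was called with GSK591 at 4 days (log2 fold change 0.49, edgeR adjusted p = 0.00206), and with MS023 at 2 days (0.59, edgeR adjusted p = 0.000423) and 4 days (0.51, edgeR adjusted p = 0.00132).

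The first untreated library held the lowest SCNN1A value of all 30, and without it 4 of these calls were lost. The edgeR adjusted p was then 0.0909 at 3 h of Dex (log2 fold change 0.41), 0.134 with GSK591 at 4 days (0.35), 0.0665 with MS023 at 2 days (0.45) and 0.118 with MS023 at 4 days (0.38). Without the second untreated library, GSK591 at 2 days was called instead (0.53, edgeR adjusted p = 0.0469, against 0.36 and 0.0598 with both).

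After 7 days of inhibitor, SCNN1A responded to 3 h of Dex with MS023 and was not called with GSK591. The libraries of 3 h of Dex after GSK591 held 47.9 and 38.6 CPM and overlapped those of GSK591 alone, with a log2 fold change of 0.09 (95% interval -0.15 to 0.33). Those after MS023 held 48.5 and 58.1 CPM, all above MS023 alone, with a log2 fold change of 0.37 (edgeR adjusted p = 0.021). This call was lost without the first MS023 7 day library (edgeR adjusted p = 0.077), without the second (0.16) and without the second Dex library (0.36). DESeq2 gave an adjusted p of 0.0637, and edgeR with total counts as scaling 0.469. At 15 min of Dex SCNN1A held 44.4 and 39.1 CPM after GSK591 and 43.5 and 46.1 CPM after MS023, with log2 fold changes of 0.03 and 0.12 that were not called. The change of its response to 3 h of Dex by GSK591 was -0.46 (95% interval -0.80 to -0.12, edgeR adjusted p = 0.322) and was not called.

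SCNN1B (ENSG00000168447.10) and SCNN1G (ENSG00000166828.2), the beta and gamma subunits of ENaC, lie 61347 bases apart on chromosome 16, SCNN1B from 23278231 to 23381299 and SCNN1G from 23182715 to 23216883, both on the plus strand. SCNN1G shares 171 exonic bases with transcripts on the opposite strand. Both genes had few counts, 2 to 42 per library for SCNN1B and 0 to 11 for SCNN1G, so their values carry large counting errors. The bases outside annotated exons in the RefSeq window of SCNN1B (GRCh38.p14, plus strand, 5′ to 3′) are shown because this gene moved with Dex, with capitals for a match to CCAAT on the minus strand.
SCNN1B, chr16:23302052-23302269: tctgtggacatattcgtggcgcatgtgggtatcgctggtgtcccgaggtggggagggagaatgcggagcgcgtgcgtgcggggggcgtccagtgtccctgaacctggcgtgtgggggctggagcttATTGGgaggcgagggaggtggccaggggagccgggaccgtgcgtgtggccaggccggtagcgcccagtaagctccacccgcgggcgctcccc

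The full SCNN1B window was 70.0% G and C, with 1 CCAAT, a sequence in 32% of windows, and 1 GGGCGG in bases that overlap an exon and are not printed. Neither the receptor palindrome nor its half-site was in it. RefSeq windows were matched for 5 of the 8 genes, 11 in all, and SCNN1A, SCNN1G and SGK3 had none here. The half-site was in 1 of the 11, a window of NEDD4L.

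SCNN1B was low and uneven before Dex and higher after 3 h of it. Untreated libraries held 1.00 and 0.71 CPM, those at 15 min of Dex 0.20 and 0.90 CPM, and those at 3 h 2.76 and 1.34 CPM. The 3 h group lay above both others, and the 15 min group overlapped untreated. From 15 min to 3 h the log2 fold change was 1.91 ± 0.55 (SE, edgeR adjusted p = 0.017). That from untreated to 3 h was 1.28 (95% interval 0.25 to 2.32, edgeR adjusted p = 0.106) and was not called. The call from 15 min to 3 h was lost without the first Dex 15 min library (1.20, edgeR adjusted p = 0.273) and without the first Dex 3 h library (1.28, edgeR adjusted p = 0.327), and DESeq2 gave an adjusted p of 0.0647.

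With Dex and an inhibitor for 3 h SCNN1B held 1.23 and 2.91 CPM for GSK591 and 2.62 and 2.25 CPM for MS023. All 4 lay above untreated. The log2 fold change was 1.27 with GSK591 (edgeR adjusted p = 0.0982) and 1.51 with MS023 (edgeR adjusted p = 0.037). The MS023 call was lost when any 1 of its 4 libraries was left out (edgeR adjusted p 0.0637 to 0.269), and the GSK591 difference was called without the first library of that group (1.77, edgeR adjusted p = 0.0385).

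The largest SCNN1B values were 3.08 and 2.95 CPM, at 3 h of Dex after 7 days of MS023. MS023 for 7 days alone held 0.28 and 0.65 CPM, and GSK591 for 7 days held 0.35 and 0.54 CPM, with 1.21 and 2.06 CPM once Dex was added for 3 h. In both pairs the Dex libraries lay above those without Dex. The log2 fold change was 2.66 ± 0.48 (SE) after MS023 (edgeR adjusted p = 5.16e-05), called in every refit, and 1.87 ± 0.63 after GSK591 (edgeR adjusted p = 0.0472). The latter was lost without the first GSK591 7 day library (edgeR adjusted p = 0.31), without the second (0.121) and without the second Dex library (0.345). Neither response differed by a called amount in edgeR from that without inhibitor (MS023 1.38, 95% interval -0.10 to 2.86, GSK591 0.59, -1.10 to 2.28).

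SCNN1G had 0 counts in both untreated libraries and in all 4 libraries of 2 days of inhibitor. At 15 min of Dex the libraries held 0.20 and 0.00 CPM, and at 3 h 0.96 and 1.22 CPM, from 19 counts. Dex with GSK591 held 0.82 and 1.14 CPM, and Dex with MS023 0.66 and 0.88 CPM. Every library given Dex for 3 h had counts of the gene.

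The 3 counts that 0 in the 2 untreated libraries allows together served as a floor. Over that floor SCNN1G was 6.81-fold higher at 3 h of Dex, 6.17-fold with GSK591 and 4.88-fold with MS023. These values take the 19, 19 and 15 counts of the Dex groups as exact, so they are not lower bounds. The edgeR adjusted p-values were 0.00213, 0.00287 and 0.00775, for a gene that passed the low-count filter only through libraries given Dex for 3 h. Without the first untreated library they were 0.0523, 0.0577 and 0.0894, and without the second 0.0603, 0.0687 and 0.114, so each of these calls was lost by leaving out either. DESeq2 gave no adjusted p for this gene in these comparisons. From 15 min to 3 h of Dex the log2 fold change was 3.30 ± 0.98 (SE, edgeR adjusted p = 0.0219), lost without the second Dex 15 min library (2.39, edgeR adjusted p = 0.302), the first Dex 3 h library (0.0771) or the second (0.145).

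After 7 days of inhibitor SCNN1G held 0.12 and 0.40 CPM with GSK591 and 0.14 and 0.07 CPM with MS023. With 3 h of Dex these became 0.44 and 0.57 CPM and 0.66 and 0.81 CPM. Both Dex pairs lay above their inhibitor alone. The log2 fold change after MS023 was 2.65 ± 0.90 (SE, edgeR adjusted p = 0.0468), lost when any 1 of the 4 libraries was left out (edgeR adjusted p 0.146 to 0.337), and that after GSK591 was 0.98 (95% interval -1.01 to 2.97) and was not called. At 4 days 1 count was found with GSK591 and 3 with MS023, which is no more than 0 counts in untreated cells allows.

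NEDD4L (ENSG00000049759.17) spans 357174 bases of chromosome 18, from 58044367 to 58401540 on the plus strand, of which 4.89% is annotated exon, and it shares 945 exonic bases with 2 antisense genes. Its untreated mean was the lowest of the 15 groups. Untreated libraries held 13.0 and 13.6 CPM, those at 15 min of Dex 15.7 and 12.6 CPM, and those at 3 h 17.2 and 23.2 CPM. The 3 h group lay above both others and the 15 min group overlapped untreated. NEDD4L rose by 0.60 ± 0.16 (SE) on the log2 scale at 3 h (edgeR adjusted p = 0.00707) and by 0.51 from 15 min to 3 h (edgeR adjusted p = 0.0244). The first of these was lost without the second Dex 3 h library (0.37, edgeR adjusted p = 0.3) or the first untreated library (0.57, 0.0794). The other was lost without the second Dex 3 h library (0.28, edgeR adjusted p = 0.452) or the second Dex 15 min library (0.36, 0.332), and DESeq2 gave an adjusted p of 0.0861.

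With Dex and GSK591 for 3 h NEDD4L held 17.6 and 18.8 CPM, and with Dex and MS023 21.3 and 18.6 CPM. All 4 lay above untreated. The log2 fold change was 0.45 with GSK591 (edgeR adjusted p = 0.0499) and 0.58 with MS023 (edgeR adjusted p = 0.00773). The first was lost without any 1 of its 4 libraries (edgeR adjusted p 0.111 to 0.265) and in DESeq2 (0.137). The second was lost without the first library of that group (edgeR adjusted p = 0.0694), the first untreated library (0.0802) or the second (0.0532).

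The highest NEDD4L values were 28.8 and 24.9 CPM, at 3 h of Dex after 7 days of MS023, where MS023 alone held 17.2 and 17.7 CPM. The groups did not overlap, and the log2 fold change of 0.62 ± 0.14 (SE, edgeR adjusted p = 0.000962) passed the threshold whichever library was left out, and was lost with total counts as scaling (edgeR adjusted p = 0.134). After GSK591, which alone gave 13.7 and 15.7 CPM, the Dex libraries held 17.0 and 13.4 CPM and overlapped them. That log2 fold change was 0.05 (95% interval -0.27 to 0.38). Its difference from the response without inhibitor was -0.54 (95% interval -0.996 to -0.09, edgeR adjusted p = 0.432) and was not called.

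The inhibitors alone left NEDD4L without a call on any day. MS023 gave 18.1 and 18.0 CPM at 2 days and 16.0 and 15.9 CPM at 4 days, and GSK591 14.1 and 15.6 CPM at 2 days and 18.5 and 14.1 CPM at 4 days. All lay above untreated, with log2 fold changes between 0.14, with GSK591 at 7 days, and 0.44, with MS023 at 2 days (edgeR adjusted p = 0.0596).

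ATP1B1 (ENSG00000143153.12), on chromosome 1 from 169105697 to 169132722 on the plus strand, shares 192 exonic bases with NME7 on the opposite strand. Dex alone did not move it by a called amount. Untreated libraries held 65.1 and 60.8 CPM, those at 15 min of Dex 62.0 and 65.2 CPM, and those at 3 h 55.2 and 66.7 CPM. The 3 groups overlapped, with a log2 fold change at 3 h of -0.05 (95% interval -0.27 to 0.17).

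Both inhibitors gave ATP1B1 values above untreated on every day. GSK591 gave 75.0 and 71.3 CPM at 2 days, 74.2 and 78.4 CPM at 4 days, and 73.6 and 72.9 CPM at 7 days. MS023 gave 74.3 and 79.5 CPM at 2 days, 80.7 and 86.8 CPM at 4 days, and 71.2 and 76.6 CPM at 7 days. None of these 12 libraries overlapped untreated. One rise was called, with MS023 at 4 days (log2 fold change 0.41 ± 0.11 SE, edgeR adjusted p = 0.00494), and it was lost without the second MS023 library (edgeR adjusted p = 0.0836) or the second untreated library (0.082). The other 5 log2 fold changes lay between 0.22 and 0.29.

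ATP1B1 was the 1 gene of the 7 that fell in a comparison. At 3 h of Dex after 7 days of MS023 it held 56.2 and 54.1 CPM, below MS023 alone, a log2 fold change of -0.42 ± 0.11 (SE, edgeR adjusted p = 0.00383). The fall was lost without the second MS023 library (-0.37, edgeR adjusted p = 0.0935) or the second Dex library (-0.39, 0.0694), and with total counts as scaling (0.339). After GSK591 the 3 h Dex libraries held 65.7 and 57.2 CPM, also below GSK591 alone (-0.25, 95% interval -0.47 to -0.03, edgeR adjusted p = 0.147). At 15 min the values were 84.0 and 87.7 CPM after GSK591 and 78.8 and 84.1 CPM after MS023, above the inhibitor alone in both cases and not called.

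CFTR (ENSG00000001626.15), on chromosome 7 from 117465784 to 117715971, had 0 to 17 counts per library (median 3.5) and 0 in 4 libraries. Its group means ran from 0.05 CPM, with Dex and GSK591, to 0.86 CPM, with 15 min of Dex after MS023, where the 2 libraries held 1.30 and 0.42 CPM. It shares 59 exonic bases with 2 genes on the opposite strand. In fits without the filter on low counts it was called in 0 of 24 comparisons (lowest edgeR adjusted p = 0.697). In the authors' deposited table CFTR was higher by 1.64 on the log2 scale at 15 min of Dex after MS023 against untreated (adjusted p = 0.0111). That contrast was not among the 24, and the group means of the count table for it were 0.86 and 0.26 CPM. In the 24 comparisons of the count table no change of CFTR was detectable at this depth.

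**Figure D3:**
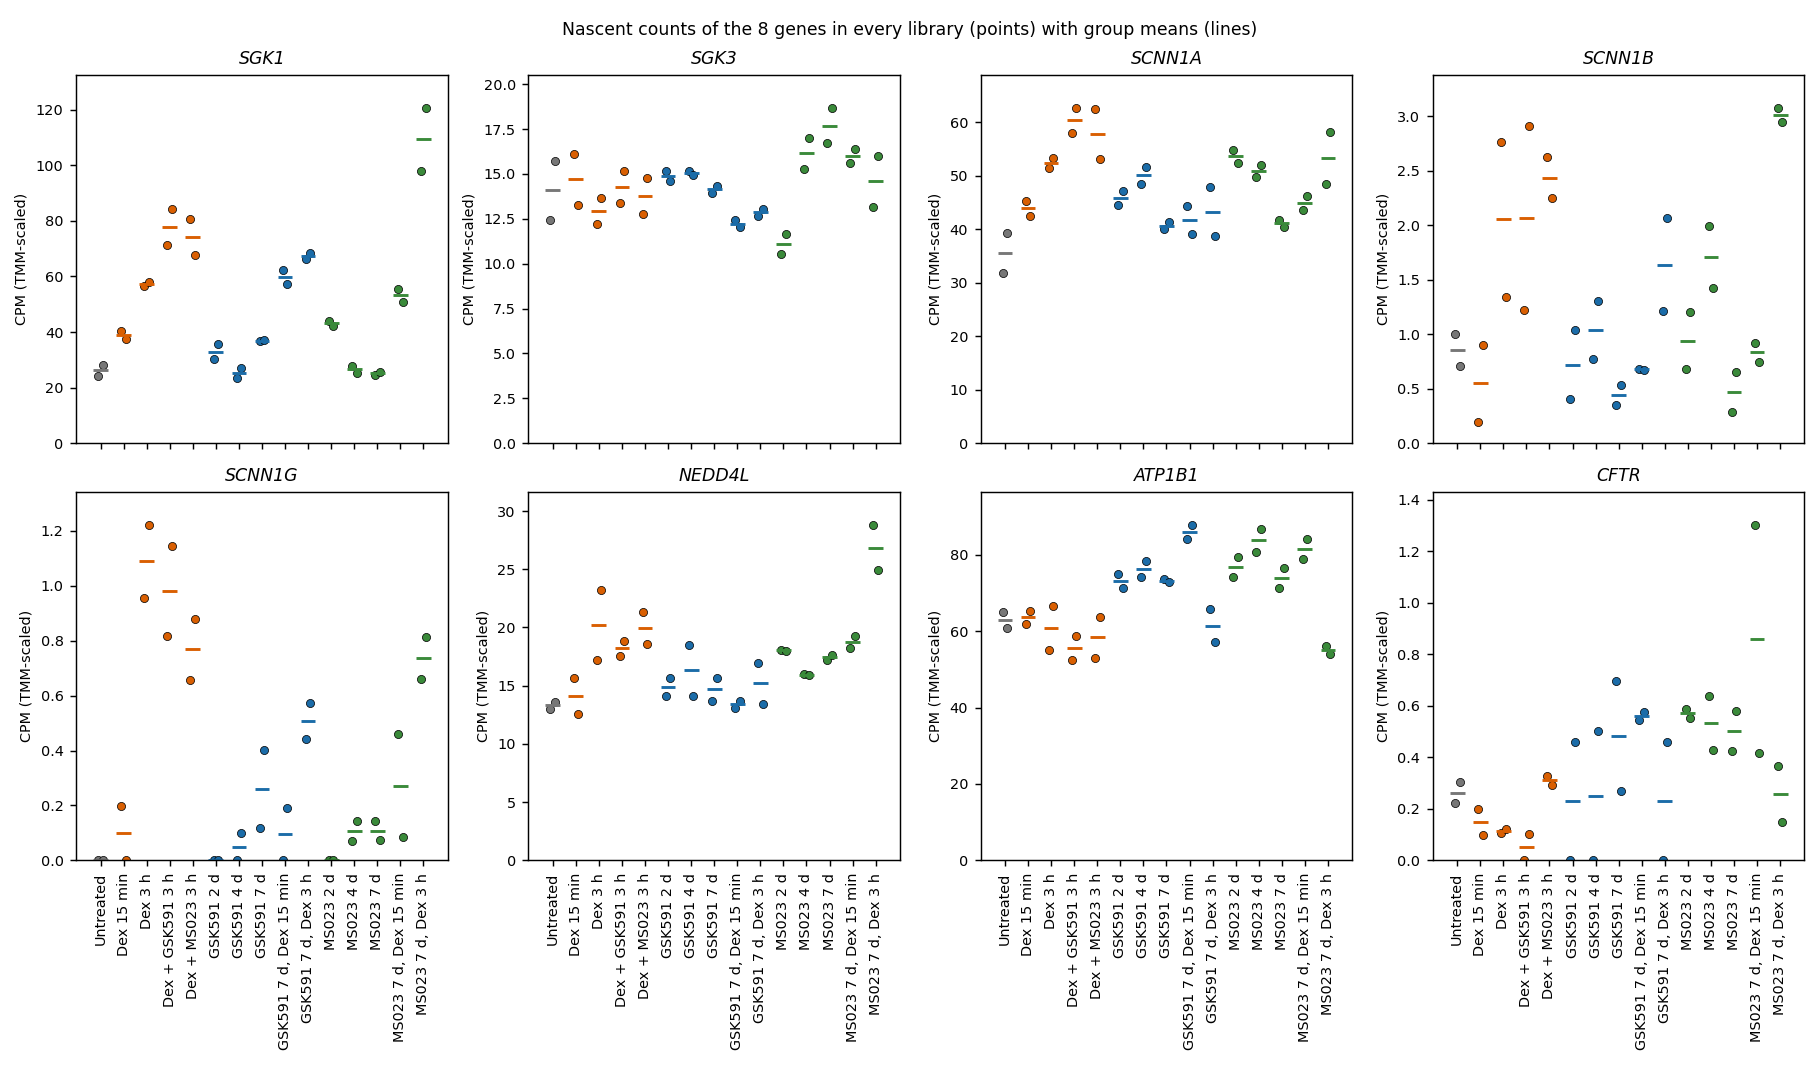
TMM-scaled CPM (vertical axis, from 0, scaled for each gene) of the 8 genes in every library (points) of the 15 groups (horizontal axis), with group means as short horizontal lines. SGK1 peaks at 98.1 and 120.6 CPM at 3 h of Dex after MS023, and SCNN1G is at 0 in the untreated and 2 day inhibitor groups.

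The genes whose group means were most like each member, by Pearson r of log2 CPM over the 15 groups among 10306 candidate genes averaging 5 CPM or more, were MT1X (0.94), NOL3 (0.93) and ZC3H7A (0.92) for SGK1. For SCNN1A they were SLC45A4 (0.90), PON2 (0.88) and TIGD3 (0.88), and for NEDD4L SH2D6 (0.89), SSR4 (0.86) and ATXN1 (0.85). For ATP1B1 they were GPCPD1 (0.92), NBEA (0.92) and DDIT4L (0.92), and for SGK3 BORCS5 (0.87), MICU2 (0.81) and PSTK (0.79). Between members r over the 15 groups was 0.67 for SCNN1A and NEDD4L, 0.60 for SGK1 and NEDD4L, 0.50 for SGK1 and SCNN1A, and -0.57 for SGK1 and ATP1B1. The 15 groups share treatments and libraries' scaling, so these values are a description.

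Around these members, 77 other genes of sodium and chloride transport and SGK signalling were listed in 7 groups, of which 67 were tested. At 3 h of Dex 8 rose and 2 fell, beside 10.5% of all genes called, with a median log2 fold change of 0.13 beside -0.01 for all genes. By list, 3 of 7 phosphorylation targets of SGK kinases rose, 2 of 14 other ENaC regulators and 2 of 15 other ion and water transporters. In the list of Na,K-ATPase and FXYD genes 1 of 8 fell, and 1 of 3 steroid receptors and their enzymes fell. The 8 other SGK and upstream kinases had a median of 0.11 and the 12 genes of the WNK pathway and cotransport one of 0.02.

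Of the called genes averaging 5 CPM or more, the largest change was in TSC22D3, which encodes the glucocorticoid-induced leucine zipper protein, at 15.2 ± 2.45 CPM untreated and 112.8 ± 1.33 CPM with Dex (SD, n = 2 each, log2 fold change 2.89, edgeR adjusted p = 2.08e-22). FOXO3, a transcription factor that SGK1 phosphorylates, rose by 0.92 (edgeR adjusted p = 4.46e-07). FXYD5, which binds the Na,K-ATPase, fell by 0.59 (edgeR adjusted p = 0.0337) and NR3C1, the glucocorticoid receptor, fell by 0.35 (edgeR adjusted p = 0.0365).

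After 7 days of GSK591 9 of the 67 rose and 1 fell (13.2% of all genes called), and after 7 days of MS023 12 rose and 1 fell (13.6%). With GSK591 WNK4, a kinase that acts on sodium and chloride transport, rose by 0.50 (edgeR adjusted p = 0.00362), SPINT2, an inhibitor of the proteases that cleave ENaC, by 0.37 (edgeR adjusted p = 0.0257) and PRR5L, which binds mTORC2, by 0.72 (edgeR adjusted p = 0.0466), and MAPKAP1, an mTORC2 subunit, fell by 0.63 (edgeR adjusted p = 0.00423). With MS023 the potassium channel KCNK5 rose by 1.14 (edgeR adjusted p = 0.000259), the cotransporter SLC12A2 by 0.93 (edgeR adjusted p = 0.000943) and PRR5L by 0.88 (edgeR adjusted p = 0.00635). EZR, a linker of membrane proteins to actin, fell by 1.54 with MS023 (edgeR adjusted p = 0.00894).

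With 3 h of Dex after GSK591, 6 of the 67 rose and 3 fell (9.85% of all genes called), and after MS023 11 rose and 5 fell (11.1%). TSC22D3 rose by 2.95 after GSK591 (edgeR adjusted p = 1.93e-22) and by 2.87 after MS023 (edgeR adjusted p = 7.67e-24), where SGK1 rose by 0.87 and 2.12. FOXO3 rose by 0.88 after GSK591 (edgeR adjusted p = 2.47e-06) and NEDD4, a ligase related to NEDD4L, by 0.97 after MS023 (edgeR adjusted p = 0.00478). NR3C1 fell by 0.62 after GSK591 (edgeR adjusted p = 0.000103), FXYD5 fell by 0.62 after GSK591 (edgeR adjusted p = 0.0245) and by 0.58 after MS023 (edgeR adjusted p = 0.0172). PRR5, an mTORC2 component, fell by 0.70 (edgeR adjusted p = 0.00549) and SPINT2 fell by 0.49 (edgeR adjusted p = 0.0013) after MS023. Only the largest changes are named, and genes named after 1 inhibitor moved the same way in group means after the other. With and without Dex after MS023, FOXO3 held 42.5 and 22.3 CPM and NR3C1 51.4 and 67.7 CPM. After GSK591 NEDD4 held 28.1 and 17.0 CPM, PRR5 5.73 and 8.43 CPM and SPINT2 30.9 and 38.4 CPM.

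The authors' deposited tables of comparisons with untreated cells hold 7 of the 8 genes, and ATP1B1 is not used from them. Their mean signal was 5.85 times the mean count of the count table for NEDD4L, 5.33 times for SCNN1B, 1.35 times for SCNN1A and 0.63 times for SGK1, so the ratio differed between genes. How the reads behind these tables were counted is not given in the sources used here. In the authors' deposited tables SGK1 had log2 fold changes of 0.69 and 1.41 at 15 min and 3 h of Dex, 1.75 and 1.79 at 3 h with GSK591 and MS023, and 1.42 and 2.28 at 3 h after 7 days of each inhibitor. These have the same direction as the values above. The last 2 are against untreated cells, while the values above for 3 h of Dex after an inhibitor are against that inhibitor alone. For 7 days of GSK591 and MS023 alone the authors' deposited tables gave SGK1 log2 fold changes of 0.55 and -0.25.

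SCNN1B, NEDD4L and SGK3 differed between the 2 sources. The sign was opposite in 7 of 10 comparisons for SGK3, 4 for SCNN1B and 3 for NEDD4L. In the authors' deposited tables SCNN1B was higher by 3.59 at 3 h of Dex (adjusted p = 1.88e-21), against 1.28 from untreated to 3 h of Dex in the count table. At 3 h of Dex after MS023 it was higher by 4.04 than untreated in the authors' deposited tables (adjusted p = 8.50e-28). That contrast was not tested in the count table, where the group means were 3.01 and 0.85 CPM. In the authors' deposited tables SCNN1B was also higher by 1.09 at 15 min of Dex (adjusted p = 0.0213), by 0.91 with GSK591 at 2 days (adjusted p = 0.0246) and by 1.68 with MS023 at 7 days (adjusted p = 2.36e-05), where the count table gave uncalled values below 0. NEDD4L in the authors' deposited tables had a log2 fold change of -0.50 after 7 days of GSK591 (adjusted p = 7.16e-09), where the count table gave 0.14. At 3 h of Dex after MS023, NEDD4L in the authors' deposited tables was higher by 1.05 than untreated (adjusted p = 1.24e-51). That contrast was not tested in the count table, where the NEDD4L group means were 26.9 and 13.3 CPM. SGK3 in the authors' deposited tables was higher than untreated by 0.48 after 7 days of MS023 (adjusted p = 0.0035) and by 0.77 with 3 h of Dex after it (adjusted p = 6.12e-07). For the latter contrast, not tested in the count table, the SGK3 group means there were 14.6 and 14.1 CPM.

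**Figure D4:**
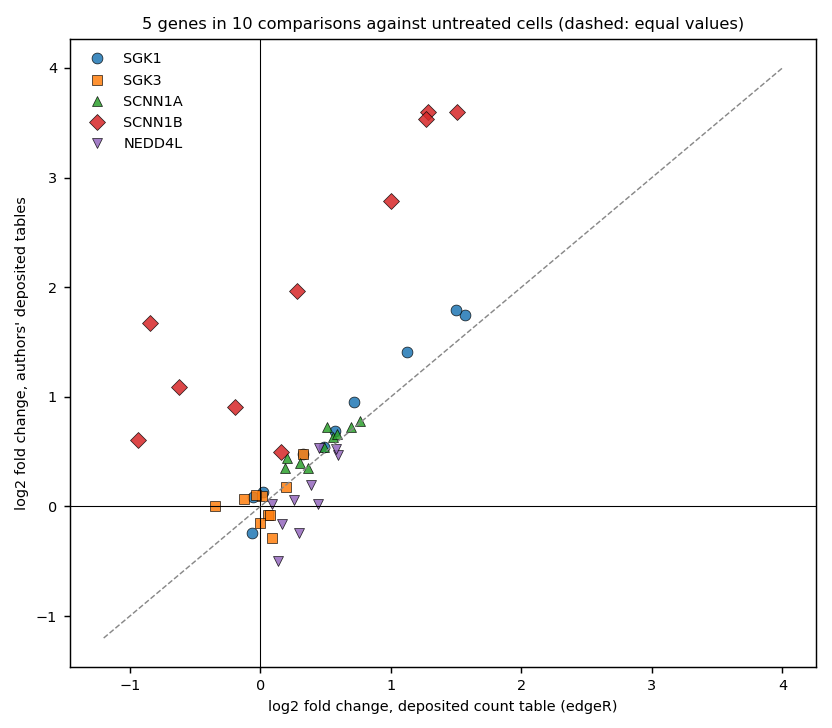
log2 fold change against untreated of 5 genes in 10 comparisons, from the deposited count table with edgeR (horizontal axis) and from the authors' deposited tables (vertical axis), with equal values on the dashed line. SCNN1B lies above the line throughout, SGK1 and SCNN1A lie near it, and the sign is opposite in 7 of 10 comparisons for SGK3, 4 for SCNN1B, 3 for NEDD4L, 1 for SGK1 and 0 for SCNN1A.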

How the data were processed

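Nascent RNA of A549 cells was measured by PRO-seq in 30 libraries, 2 for each of 15 groups. The deposited table holds whole-number counts per gene, made by the authors with featureCounts (Subread) 2.0.1 on hg38, per the submitters' processing notes. The aligner, the feature type counted and the strand setting are not given in the sources used here, so reads of overlapping genes on opposite strands cannot be told apart. The authors' deposited tables of comparisons give a mean signal, a log2 fold change and an adjusted p-value per gene, and ATP1B1 is not used from them.

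Gene identifiers were matched to GENCODE 29. Genes were filtered with filterByExpr (minimum count 10, minimum total 15), scaled by TMM and tested with edgeR 4.0.16 (R 4.3.3) in 1 quasi-likelihood fit over all 15 groups, with 15 residual degrees of freedom. P-values were adjusted over 22919 genes by the Benjamini-Hochberg method, at 0.05. Each SE is the log2 fold change divided by the square root of F. All comparisons with untreated cells share the same 2 libraries. A floor of 3 counts over a group stands for a count of 0, and it covers counting error only.

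DESeq2 1.42.0, other scalings, no filter, the compared groups alone, a replicate block and leaving out each library were tried as alternatives. The fits were tested on simulated data. The replicate numbers were not used to pair the libraries in the main fit. Over 105 pairs of groups the correlation of same-numbered deviations ran from -0.451 to 0.487 (median 0.0214), with 22 pairs over 0.1 and 13 under -0.1. This does not settle whether the libraries were paired.

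Every member was described. Of 7 lists of related genes, up to 3 called genes with the largest rise and 3 with the largest fall and a mean of at least 5 CPM were named in each of 5 comparisons, and for likeness the 3 genes with the highest r. One gene that this rule names is not reported here. The members and lists were chosen with earlier results of these data known. Promoter windows are RefSeq's, on GRCh38.p14.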

Additional observations from a re-analysis of the deposited data

Results flagged for a closer look

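The response of SGK1 to 3 h of Dex differed between cells without inhibitor and cells kept for 7 days in MS023. The difference of the log2 fold changes was 0.99 (edgeR adjusted p = 0.0022), with Dex libraries at 98.1 and 120.6 CPM after MS023 against 56.4 and 58.0 CPM without inhibitor. Without Dex the libraries held 24.6 and 25.6 CPM with MS023 and 24.1 and 28.2 CPM untreated. With 1 library left out the difference ran from 0.84 to 1.14, and with total counts as scaling it was 0.82 and not called.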

How the results depend on the processing

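The SGK1 responses to 3 h of Dex, alone, with either inhibitor and after either inhibitor, and the SCNN1B response to 3 h of Dex after MS023 were called in all 11 refits, while most calls of SCNN1A, SCNN1B, SCNN1G and NEDD4L rest on single libraries, as given beside them. With 1 library left out, the lone library of its group is assumed to vary like the other groups. The number of the 7 genes called then ran from 0 to 1 for Dex 15 min, 1 to 4 for Dex 3 h, 2 to 3 for Dex 3 h against 15 min, 2 to 4 for Dex with GSK591 and for Dex with MS023, 0 to 1 for GSK591 at 2, 4 and 7 days, 1 to 2 for MS023 at 2 and 4 days, 1 to 2 for Dex 3 h after GSK591, and 3 to 5 for Dex 3 h after MS023.

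With total counts as scaling the number called was 0 for Dex 3 h against 15 min, 3 for GSK591 at 4 days, 0 at 7 days, 4, 6 and 5 for MS023 at 2, 4 and 7 days, 1 and 5 for GSK591 against MS023 at 2 and 7 days, 0 for Dex 15 min after GSK591, 2 for Dex 3 h after MS023 and 0 for the change of the 3 h response by MS023. SGK1 reversed to 0.95 with MS023 at 7 days and to -0.49 for GSK591 against MS023 at 7 days, where the medians of all genes moved to 1.02 and -1.07. With only the compared groups in the fit the number was 1 for Dex 3 h against 15 min, 2 for Dex with MS023, 1 and 2 for GSK591 at 2 and 4 days, 4 and 1 for MS023 at 2 and 7 days, and 1 for GSK591 against MS023 at 2 days. DESeq2, which gave SCNN1G no adjusted p in these comparisons, called 1 for Dex 3 h against 15 min, 1 for Dex 3 h after GSK591, 2 for Dex with GSK591 and 3 for Dex with MS023. DESeq2's size factors in edgeR gave 1 for GSK591 at 2 days, and no filter gave 1 for Dex 3 h after GSK591. The share of all genes called also changes with the setting and is not given here, so these counts are a description only.

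In the authors' deposited tables the number called was 3 for Dex 15 min, beside 3.93% of all genes with an adjusted p. It was 3 for GSK591 at 2, 4 and 7 days, beside 14.7%, 26.8% and 23.8%. For MS023 it was 2 at 4 days and 4 at 7 days, beside 22.5% and 22%. The authors' tables called SCNN1A higher in 15 min of Dex (0.40, adjusted p = 0.00309), where the count table did not. They also did so with GSK591 at 2 days (0.35, 0.00795) and 7 days (0.35, 0.00879) and with MS023 at 7 days (0.44, 0.00029). SCNN1G was higher there by 3.31 at 3 h of Dex (adjusted p = 0.000232). Signs in these tables were reversed for SCNN1B at Dex 15 min (1.09), GSK591 2 days (0.91) and MS023 7 days (1.68) and for NEDD4L with GSK591 at 4 days (-0.24) and 7 days (-0.50). The cause was not tested. A replicate block changed 0 of 168 calls. Leaving out 95 mitochondrial and ribosomal RNA genes changed none of them. SCNN1G and CFTR, at a median of 2 and 3.5 counts per library, are limited by depth.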
